A study of Canis lupus familiaris with 12 samples.

Results

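The genes of the heat shock protein families HSP70 (HSPA), HSP90, HSP60 and its partner HSP10 (HSPD and HSPE), HSP110 (HSPH) and small heat shock proteins (HSPB), and those of their J-domain partners (DNAJA, DNAJB and DNAJC), were followed in a canine mast cell tumour line under masitinib. Members were taken by name alone, but the choice of these families was made with earlier results of these data known. Every gene whose symbol on the platform carried one of these family names was taken, with the probe set of the highest mean signal standing for the gene, which gave 61 of the 15115 genes that had a probe set of a single symbol. Of these, 32 code for proteins of the cytosol, 12 for the endoplasmic reticulum (ER), 8 for mitochondria, 3 for the nucleus and 6 for vesicles, endosomes or a place that is not settled. A further 15 names of these families, among them the inducible HSP70 genes HSPA1A, HSPA1B and HSPA6 and the major J-domain gene DNAJA1, had no probe set under that symbol and were not analysed here.

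C2 is an established line from a dog's mast cell tumour. It carries a tandem duplication in the juxtamembrane part of KIT, the stem cell factor receptor, which is thereby active without its ligand, and this holds for all samples. Masitinib is a small-molecule inhibitor of KIT and related kinases. RNA was taken from flasks before treatment (0 h) and after 12, 24 and 72 h with 100 nM masitinib, with 3 arrays per time and 12 in all. No untreated flask of 12 h or later is analysed here, so an effect of masitinib and one of the hours in culture cannot be told apart in any comparison. All samples come from a single line, and the p-values measure only the spread between these samples, which may be technical.

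HSP70 proteins bind short hydrophobic stretches of unfolded protein in a cycle driven by ATP. J-domain proteins deliver the substrates and speed up ATP hydrolysis, and HSP110 proteins release the bound nucleotide. HSP90 acts later, on proteins close to their native fold, among them many kinases and steroid receptors, and KIT with activating mutations is a known client of it. Mitochondria and the ER each have an HSP70 of their own, HSPA9 and HSPA5, and mitochondria also have the HSP60 and HSP10 chamber in which imported proteins fold. Many cytosolic members are induced by the transcription factor HSF1 during heat or protein stress, while HSPA5 and several ER members are induced by the unfolded protein response. In mast cells and their tumours the ER chaperones serve receptors and granule proteins made in quantity.

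The arrays gave a log2 signal per probe set, quantile normalised by the authors, and a difference of 1 on this scale is a doubling. Replicate arrays correlated at 0.9952 to 0.9979 and arrays of different times at 0.9689 to 0.9927. All 8 measured mast cell markers of 10 listed lay above the median level of all probe sets, whereas 0 of 4 macrophage, 2 of 3 lymphocyte and 0 of 4 fibroblast markers did. By the test defined below, 1, 5 and 4 of these 8 mast cell markers rose at 12, 24 and 72 h. Of all genes, 4.26%, 8.01% and 8.73% did. The part of these markers in the results below was not tested. The signals of the 36 probe sets for poly-A spike-in controls were higher by 0.29, 0.60 and 0.47 at 12, 24 and 72 h than at 0 h. Scaling every array to these controls moved the median of all probe sets to -0.28, -0.57 and -0.44 against 0 h, from 0.01, 0.03 and 0.03 as deposited. The part of this shift in the results was not tested, and where it turns the direction of a value printed here against 0 h, the turned value is given beside it. In such bulk samples, fewer cells of a kind and less RNA per cell cannot be told apart.

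A gene was said to rise or fall when its adjusted p (limma, Benjamini-Hochberg over all probe sets tested) was under 0.001 and its change over 1.5-fold. At 12 h, 12 of the 61 chaperone genes fell (19.7%) and 1 rose, against 6.30% of all genes that fell and 4.26% that rose, or 10.6% in either direction. At 24 h, 15 fell (24.6%) and 3 rose, against 10.0% and 8.01% of all genes, or 18.0% in either direction. At 72 h, 16 fell (26.2%) and 2 rose, against 11.0% and 8.73%, or 19.8% in either direction. The median change of the chaperone genes was -0.11, -0.23 and -0.14 on the log2 scale, beside 0.01, 0.03 and 0.02 for all genes. The share that fell was thus above that of all genes at each time, and the share that rose was below it. Of the 61 chaperone genes, 45 had a level above the median of all probe sets. Among these 45, 12, 15 and 15 fell and 1, 3 and 2 rose. The shares of all genes were not counted by level, so this comparison is not matched for signal.

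Altogether 24 of the 61 genes passed the test at 1 or more times and 37 never did. Of the former, 20 fell and 4 rose, and none did both in the comparisons with 0 h. A fall at all of the times was seen for 9 genes, namely the cytosolic HSPA4, HSPA14, DNAJC2 and DNAJB1, the mitochondrial HSPA9, HSPE1, DNAJA3 and DNAJC11, and the nuclear DNAJC9. For these counts over several times the share of all genes was not counted, so they cannot be set against it. Of all genes, 6.30%, 10.0% and 11.0% fell and 4.26%, 8.01% and 8.73% rose at 12, 24 and 72 h. Beside these shares the counts by family were as follows, and no difference between families was tested. Of 10 HSPA genes, 5, 5 and 4 fell at 12, 24 and 72 h (50%, 50% and 40%), and none rose with limma or with the analysis of variance of the methods (at an unadjusted p under 0.05, 0, 1 and 1 did). Of 23 DNAJC genes, 3, 4 and 6 fell (13%, 17.4% and 26.1%) and 1, 1 and 0 rose (4.35%, 4.35% and 0%). At 72 h, 5 of them were higher at an unadjusted p under 0.05, and the analysis of variance gave 0 that rose. Of 12 DNAJB genes 1 fell at each time (8.33%), which is near the share of all genes, and 0, 2 and 2 rose (0%, 16.7% and 16.7%). At 12 h, 3 of them were higher at an unadjusted p under 0.05, and the analysis of variance gave 0 that rose.

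**Figure D1:**
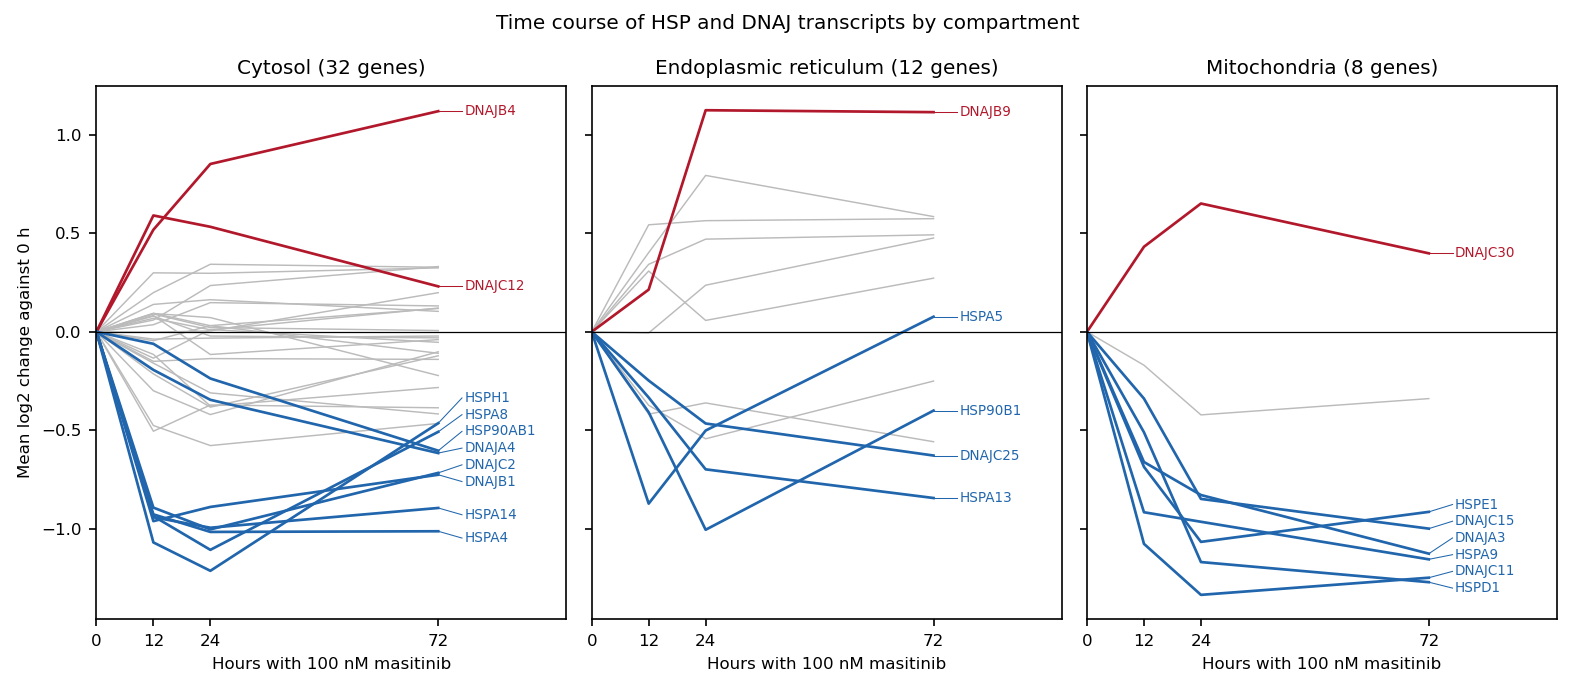
Mean log2 change against 0 h (vertical axis) over hours with masitinib (horizontal axis) for the cytosolic, ER and mitochondrial genes, with genes that rose at any time in red, genes that fell in blue and the others in grey. Most blue lines of the cytosol and all of those of the mitochondria lie below -0.5 at 72 h, while HSPA5 is back near 0. With arrays scaled to the poly-A controls, DNAJC12 at 24 and 72 h, DNAJC30 and HSPA5 at 72 h and DNAJB9 at 12 h turn below 0, as do several genes in grey.

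In the cytosol, 6 of 32 genes fell (18.8%) and 1 rose (3.12%) at each time, against 6.30%, 10.0% and 11.0% of all genes that fell and 4.26%, 8.01% and 8.73% that rose. The median changes were -0.05, -0.07 and -0.11. Among the 19 cytosolic genes with a level above the median of all probe sets they were -0.19, -0.37 and -0.42. The genes that fell at 12 and 24 h were HSPA8, HSPH1, HSPA4, HSPA14, DNAJC2 and DNAJB1, and at 72 h HSPA4, HSPA14, DNAJC2, DNAJB1, DNAJA4 and HSP90AB1. Other genes of the HSP70 system, among them HSPA2 (-0.48, -0.58 and -0.47), HSPA4L and DNAJA2, did not pass the test. The small heat shock protein genes did not pass the test at any time.

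HSPA8 codes for the constitutive cytosolic HSP70, HSC70. Its log2 levels were 14.06, 14.05 and 14.09 at 0 h, 13.12, 13.12 and 13.14 at 12 h, 13.01, 12.91 and 12.95 at 24 h, and 13.56, 13.51 and 13.60 at 72 h. No treated array reached the untreated ones, and the 72 h arrays all lay above those of 12 and 24 h. The changes were -0.94 and -1.11 at 12 and 24 h (SE 0.0537, adjusted p = 5.42e-08 and 4.01e-09), which is 0.522 and 0.464 of the untreated level, and -0.51 at 72 h (adjusted p = 4.7e-06), where the change was under 1.5-fold. Its probe set belongs to a class whose probes can match more than 1 transcript. The same holds for several genes below, among them HSPA4, DNAJC2, DNAJB1, HSP90AB1, HSP90B1, HSPE1 and DNAJC15. Near-identical copies of these genes may thus share the signal.

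HSPH1, the HSP110 protein that reloads HSP70 with ATP, followed the same course. The arrays gave 12.54, 12.65 and 12.64 at 0 h, 11.47, 11.56 and 11.58 at 12 h, 11.49, 11.34 and 11.35 at 24 h, and 12.16, 12.13 and 12.13 at 72 h. The 12 and 24 h arrays overlapped with each other and with no others. The changes were -1.07, -1.22 and -0.46 (SE 0.0631), and the first pair passed the test (adjusted p = 6.82e-08 and 7.3e-09). At 72 h a further probe set of HSPH1 also passed it, with -0.68.

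HSPA4, a further HSP110-type exchange factor of the cytosol, stayed low. It was at 11.32, 11.23 and 11.12 before treatment, at 10.23, 10.29 and 10.36 after 12 h, at 10.19, 10.18 and 10.25 after 24 h and at 10.30, 10.13 and 10.20 after 72 h. All treated arrays lay in a single narrow band below the untreated ones. The changes were -0.93, -1.02 and -1.01 (SE 0.0709, adjusted p = 6.08e-07, 1.06e-07 and 9.74e-08), although 2 dimmer probe sets of the gene did not pass the test at any time. HSPA4L, a close relative, had 0.06, 0.23 and 0.33 and did not pass it (-0.23, -0.37 and -0.14 with poly-A scaling).

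HSPA14 and DNAJC2 form a chaperone pair at the ribosome that receives nascent chains. HSPA14 had 10.96, 10.91 and 10.97 at 0 h, 10.00, 9.97 and 10.04 at 12 h, 10.04, 9.89 and 9.92 at 24 h, and 10.09, 9.99 and 10.07 at 72 h. DNAJC2 had 10.11, 10.13 and 10.04 at 0 h, 9.21, 9.17 and 9.22 at 12 h, 9.12, 9.01 and 9.13 at 24 h, and 9.36, 9.36 and 9.41 at 72 h. Both lay below every untreated array throughout. HSPA14 changed by -0.94, -1.0 and -0.90 (SE 0.0602) and DNAJC2 by -0.89, -1.0 and -0.72 (SE 0.0574), and all of these passed the test with adjusted p between 1.75e-08 and 3.48e-07. The other probe set of HSPA14 did not pass it at any time (-0.16, -0.17 and -0.20), and that of DNAJC2 did so at 24 h (-0.92).

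DNAJB1 is the classical J-domain partner of cytosolic HSP70 and a standard target of HSF1. It is given in full although it was outside the 6 largest changes of the cytosol, a choice made after its values were seen. It read 9.72, 9.81 and 9.77 at 0 h, 8.84, 8.73 and 8.84 at 12 h, 8.96, 8.79 and 8.87 at 24 h, and 8.94, 9.06 and 9.11 at 72 h. The treated arrays were well below the untreated ones, and the changes were -0.96, -0.89 and -0.73 (SE 0.0683, adjusted p = 3.19e-07, 2.64e-07 and 1.56e-06). Of its 3 other probe sets, 1 passed the test at 12 h, 2 at 24 h and 1 at 72 h. DNAJA2, a further J-domain partner of HSP70, had -0.51, -0.37 and -0.39 and was never over 1.5-fold, and DNAJA4 fell at 72 h (-0.62, SE 0.0657, adjusted p = 5.12e-06), a call that was lost at -0.58 without the second 72 h array.

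DNAJB4, a J-domain protein of the same type as DNAJB1, went the other way. It had 10.31, 10.24 and 10.21 at 0 h, 10.80, 10.71 and 10.80 at 12 h, 11.12, 11.05 and 11.15 at 24 h, and 11.36, 11.36 and 11.40 at 72 h. Each time had its own range with no overlap with the next. The changes were 0.52, 0.85 and 1.12 (SE 0.0574), which passed the test at 24 h (adjusted p = 7.8e-08) and 72 h (adjusted p = 5.46e-09, 2.18-fold). Its second probe set passed it at both times too, with 0.83 and 0.86. Scaled to the poly-A controls the changes were 0.23, 0.25 and 0.65, and the call at 24 h was lost.

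DNAJC12, known as a partner of the aromatic amino acid hydroxylases, rose at 12 h. Its levels were 8.66, 8.74 and 8.61 at 0 h, 9.29, 9.20 and 9.29 at 12 h, 9.19, 9.17 and 9.26 at 24 h, and 8.89, 8.91 and 8.90 at 72 h. All treated arrays were above the untreated ones. The changes were 0.59, 0.53 and 0.23 (SE 0.0584), of which the first passed the test (adjusted p = 5.74e-06, 1.51-fold), and with poly-A scaling they were 0.30, -0.07 and -0.24. The call at 12 h was lost with that scaling. It was also lost without the third untreated array (0.56), the first 12 h array (0.58) or the third 12 h array (0.58).

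HSP90AB1 and HSP90AA1 code for the constitutive and the inducible HSP90 of the cytosol. HSP90AB1 had 14.10, 14.15 and 14.10 at 0 h, 14.02, 14.06 and 14.09 at 12 h, 13.93, 13.85 and 13.86 at 24 h, and 13.53, 13.45 and 13.55 at 72 h. It was thus lowest on the last arrays, where HSPA8 and HSPH1 were no longer at their lowest. The changes were -0.06, -0.24 and -0.60 (SE 0.0555), and the last passed the test (adjusted p = 1.27e-06), but at -0.58 not without the second 72 h array. A dimmer probe set of HSP90AB1 fell already at 12 and 24 h (-1.0 and -0.95), so the probe sets of this gene disagreed on the time of the fall. HSP90AA1 had 13.87, 13.84 and 13.83 at 0 h and lay between 13.43 and 13.77 on all treated arrays, with changes of -0.11, -0.38 and -0.28 (SE 0.0540) that never reached 1.5-fold. A bright probe set that carries HSP90AA1 beside another symbol, and was not used for the gene, fell at 24 h (-0.62, SE 0.0743, adjusted p = 1.82e-05) and 72 h (-0.66, adjusted p = 8.14e-06) and had -0.17 at 12 h. For the probe set used, the 95% interval of the change at 12 h was -0.23 to 0.00.

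None of the 7 small heat shock protein genes passed the test at 12, 24 or 72 h with limma or with the analysis of variance (at an unadjusted p under 0.05, 1, 2 and 2 were higher and 1, 1 and 0 lower). Of the 7, 5 had levels below the median of all probe sets. HSPB1, the small heat shock protein that coats unfolding proteins and actin, had 0.30, 0.30 and 0.32 (SE 0.0605), and 0.01, -0.31 and -0.15 with poly-A scaling. Its other probe set passed the test at 72 h with 0.59, at the edge of the threshold of 0.585.

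**Figure D2:**
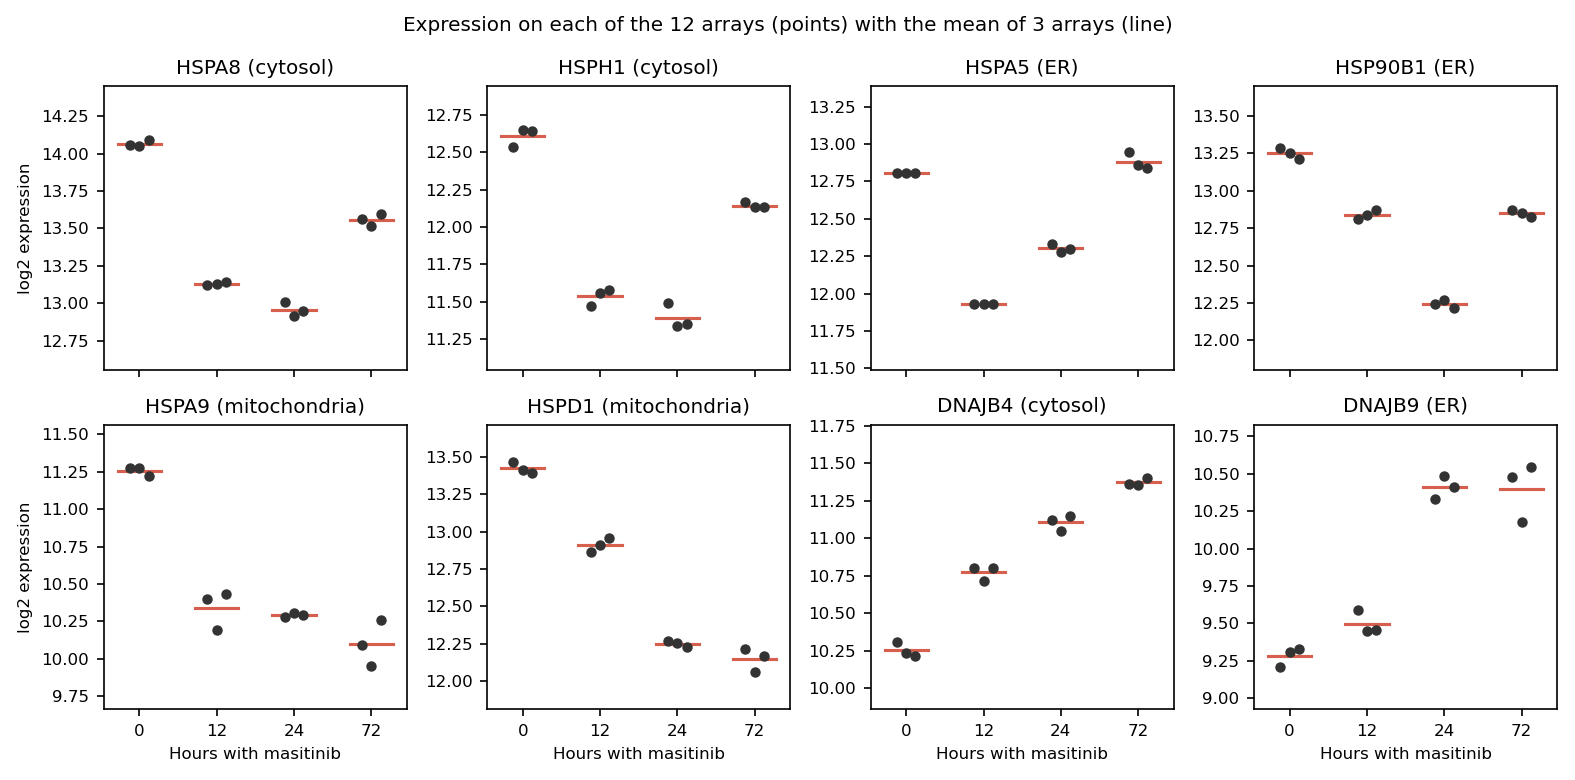
Log2 expression (vertical axis, the same span in each panel) on each array (points) and the mean of 3 arrays (line) by hours with masitinib (horizontal axis) for 8 genes. HSPA8, HSPH1 and HSP90B1 were lowest at 24 h and higher again at 72 h, HSPA5 was lowest at 12 h, HSPA9 and HSPD1 stayed low, and DNAJB4 and DNAJB9 were high at 24 and 72 h.

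In the ER, 0, 1 and 1 of 12 genes rose and 1, 2 and 2 fell at 12, 24 and 72 h. That is 8.33%, 16.7% and 16.7% that fell, against 6.30%, 10.0% and 11.0% of all genes, and 8.33% that rose at 24 and 72 h, against 8.01% and 8.73%, so these counts were near the share of all genes. At 12 h, 3 of them were higher at an unadjusted p under 0.05, and the analysis of variance also gave 0 that rose. The median changes were -0.13, -0.15 and 0.17, and the last was -0.30 with poly-A scaling. Single genes nevertheless had clear changes, and the lowest arrays were those of 12 h for HSPA5 and those of 24 h for HSP90B1, the major chaperones of the ER lumen.

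HSPA5 codes for BiP, the HSP70 of the ER lumen and the sensor-binding chaperone of the unfolded protein response. It had 12.80, 12.81 and 12.80 at 0 h, 11.93 on each of the 12 h arrays, 12.33, 12.28 and 12.30 at 24 h, and 12.94, 12.86 and 12.84 at 72 h. The 12 h arrays were the lowest, those of 24 h lay between them and the untreated ones, and those of 72 h were slightly above the untreated ones. The change was -0.87 at 12 h (SE 0.0527, adjusted p = 8.18e-08, 0.546 of the untreated level) and -0.50 at 24 h, where it was under 1.5-fold. At 72 h it was 0.08, with a 95% interval of -0.04 to 0.19 (adjusted p = 0.291), and -0.40 with poly-A scaling. The other probe set of the gene passed the test at 24 h too (-0.67).

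HSP90B1, also called GRP94, is the HSP90 of the ER and folds receptors and integrins. Its levels were 13.28, 13.25 and 13.21 at 0 h, 12.81, 12.84 and 12.87 at 12 h, 12.24, 12.27 and 12.22 at 24 h, and 12.87, 12.85 and 12.83 at 72 h. The 24 h arrays formed the lowest group, and those of 12 and 72 h covered the same range. The changes were -0.41, -1.01 and -0.40 (SE 0.0523), and the middle one passed the test (adjusted p = 7.35e-09). The other probe set passed it at 24 h with -1.35.

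HSPA13, a small HSP70-like protein of microsomes, fell later and stayed low. It had 10.01, 9.98 and 9.93 at 0 h, 9.69, 9.67 and 9.56 at 12 h, 9.28, 9.34 and 9.20 at 24 h, and 9.15, 9.03 and 9.20 at 72 h. The ranges of 24 and 72 h met, and both lay below the earlier ones. The changes were -0.33, -0.70 and -0.84 (SE 0.0672), with adjusted p = 2.23e-06 at 24 h and 3.28e-07 at 72 h. DNAJC25, a membrane protein of the ER, fell at 72 h (-0.63, SE 0.0649, adjusted p = 3.76e-06).

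DNAJB9, or ERdj4, is a J-domain partner of HSPA5 in the ER lumen and a known target of the unfolded protein response. The arrays gave 9.21, 9.31 and 9.33 at 0 h, 9.59, 9.45 and 9.46 at 12 h, 10.33, 10.49 and 10.41 at 24 h, and 10.48, 10.18 and 10.55 at 72 h. The level rose between 12 and 24 h and was then kept within the spread of the 72 h arrays. The changes were 0.21, 1.13 and 1.12 (SE 0.0918, adjusted p = 0.11, 4.65e-07 and 4.4e-07), or 2.18-fold at 24 h. With poly-A scaling they were -0.08, 0.52 and 0.65, and the call at 24 h was lost.

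The other J-domain genes of the ER, apart from DNAJC25, did not pass the test, and no difference from DNAJB9 was tested. DNAJB11, or ERdj3, had -0.37, -0.54 and -0.25 (SE 0.0589) and DNAJC3, or P58IPK, had -0.42, -0.36 and -0.56 (SE 0.0605), all under 1.5-fold. DNAJC10, the disulphide reductase ERdj5, had 0.34, 0.47 and 0.49 (SE 0.0667), with all treated arrays above the untreated ones and adjusted p = 7.57e-05 at 24 h and 4.57e-05 at 72 h, so it missed only the fold limit at these times, and with -0.13 at 24 h under poly-A scaling. DNAJC1 had -0.01, 0.24 and 0.48 (adjusted p = 0.000103 at 72 h, also under 1.5-fold, and -0.37 at 24 h under that scaling). DNAJB12 and DNAJB14, which sit in the ER membrane and face the cytosol, varied more between arrays (SE 0.171 and 0.193) and did not pass the test, with 0.54, 0.57 and 0.58 for DNAJB12 (-0.04 at 24 h with poly-A scaling) and 0.40, 0.80 and 0.59 for DNAJB14.

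In mitochondria, 4 of 8 genes fell at 12 h (50%) and 6 of 8 at both 24 and 72 h (75%), against 6.30%, 10.0% and 11.0% of all genes. Of these genes, 0, 1 and 0 rose (12.5% at 24 h), against 4.26%, 8.01% and 8.73%. With so few genes, a count of 1 is near the share of all genes. At 12 and 72 h, 1 of them was higher at an unadjusted p under 0.05, and the analysis of variance gave 0 that rose. The median changes were -0.59, -0.91 and -1.06. They were farther from 0 than the medians of the cytosolic genes with a level above the median of all probe sets (-0.19, -0.37 and -0.42) and of the ER genes chosen in the same way (-0.25, -0.36 and 0.08, the last being the value of HSPA5, which is below 0 with poly-A scaling), and no test of that difference was made. All 8 mitochondrial genes were above the median level, against 19 of 32 in the cytosol and 11 of 12 in the ER.

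HSPD1 and HSPE1 code for HSP60 and HSP10, the chamber and the lid of the mitochondrial chaperonin. In the RefSeq annotation of the UU_Cfam_GSD_1.0 assembly they lie next to each other, the only such pair among the 59 chaperone genes that could be placed. HSPD1 had 13.46, 13.41 and 13.39 at 0 h, 12.86, 12.91 and 12.96 at 12 h, 12.27, 12.26 and 12.23 at 24 h, and 12.21, 12.07 and 12.17 at 72 h. It went down in 2 steps, and the 72 h arrays lay below those of 24 h with a difference of -0.10, or 0.03 with poly-A scaling. The changes were -0.51, -1.17 and -1.27 (SE 0.0589), with adjusted p = 5.51e-09 at 24 h and 2.19e-09 at 72 h, and its 2 other probe sets passed the test at 12 h too (-0.92 and -0.76). These also gave larger changes at the later times, of -1.49 and -2.01 at 24 h and of -1.55 and -2.24 at 72 h, so the size of the fall depended on the probe set.

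HSPE1, given in full after its values were seen, had 13.89, 13.84 and 13.80 at 0 h, 13.18, 13.12 and 13.18 at 12 h, 12.76, 12.75 and 12.82 at 24 h, and 12.96, 12.90 and 12.93 at 72 h. All its treated arrays lay below the untreated ones and the 24 h arrays were lowest. The changes of -0.69, -1.07 and -0.92 (SE 0.0546) all passed the test, with adjusted p = 8.78e-07, 6.37e-09 and 2.25e-08.

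HSPA9, or mortalin, is the HSP70 of the mitochondrial matrix and the motor that pulls in imported proteins. It was at 11.27, 11.28 and 11.23 before treatment, at 10.40, 10.19 and 10.43 after 12 h, at 10.28, 10.31 and 10.29 after 24 h, and at 10.09, 9.95 and 10.26 after 72 h. The 12 h range overlapped with those of 24 and 72 h, and no treated array came near the untreated ones. The changes were -0.92, -0.97 and -1.16 (SE 0.0835, adjusted p = 2.85e-06, 8.2e-07 and 1.32e-07). Thus the level at 72 h was 0.449 of the untreated one. Its 2 other probe sets passed the test at each time, with changes between -0.95 and -1.59.

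DNAJA3, or TID1, is the J-domain partner of HSPA9 in the matrix. It had 8.35, 8.26 and 8.28 at 0 h, 7.67, 7.58 and 7.65 at 12 h, 7.53, 7.61 and 7.26 at 24 h, and 7.12, 7.10 and 7.28 at 72 h. It fell at each time, with changes of -0.66, -0.83 and -1.13 (SE 0.0873, adjusted p = 6.86e-05, 5.18e-06 and 2.52e-07). DNAJC15 and DNAJC19 are J-domain proteins of the inner membrane, relatives of the import motor's own J-protein. DNAJC15 changed by -0.34, -0.85 and -1.0 (SE 0.0657) and passed the test at 24 h (adjusted p = 2.86e-07) and 72 h (adjusted p = 5.46e-08), whereas DNAJC19 had -0.17, -0.42 and -0.34 (SE 0.0592) and did not pass it. A second probe set of DNAJC19 fell at 72 h (-0.70).

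DNAJC11, which is found with the complex that shapes the cristae, had the largest change at 12 and 24 h among the mitochondrial genes when each is read from its brightest probe set. Its levels were 8.58, 8.67 and 8.56 at 0 h, 7.45, 7.42 and 7.70 at 12 h, 7.31, 7.18 and 7.30 at 24 h, and 7.41, 7.25 and 7.39 at 72 h. Every treated array was lower than every untreated one. The changes were -1.08, -1.34 and -1.25 (SE 0.0823, adjusted p = 6.09e-07, 3.41e-08 and 5.6e-08), so 0.396 of the untreated level was left at 24 h. Of its 5 other probe sets, 3 passed the test at each time and 2 did not.

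DNAJC30 was the only mitochondrial gene with positive changes against 0 h as deposited, the last of which is negative with poly-A scaling. It had 7.52, 7.51 and 7.68 at 0 h, 8.02, 8.01 and 7.98 at 12 h, 8.26, 8.24 and 8.17 at 24 h, and 7.93, 7.88 and 8.09 at 72 h. All treated arrays were above the untreated ones. The changes were 0.43, 0.65 and 0.40 (SE 0.0703), and the middle one passed the test (adjusted p = 6.48e-06, 1.57-fold). With poly-A scaling they were 0.14, 0.05 and -0.07, and that call was lost.

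Outside these compartments, DNAJC9 had the largest change of the 61 genes at each time, each read from its brightest probe set. It is a nuclear J-domain protein that acts with HSP70 as a chaperone of histones H3 and H4, and it is given in full after its values were seen. Its levels were 11.20, 11.30 and 11.29 at 0 h, 10.09, 10.09 and 10.20 at 12 h, 9.22, 8.97 and 9.01 at 24 h, and 9.32, 9.26 and 9.38 at 72 h. No array of a treated time reached the untreated range, and the arrays of 24 h were the lowest. The changes were -1.14, -2.20 and -1.95 (SE 0.0742, adjusted p = 1.58e-07, 1.88e-10 and 3.83e-10), and the level at 24 h was 0.218 of the untreated one. The other probe set of DNAJC9 had -1.11, -2.35 and -2.26 and passed the test each time. The other nuclear members, DNAJC8 and DNAJC17, which are linked to splicing, did not pass the test (0.09, or -0.21 with poly-A scaling, -0.27 and -0.16 for DNAJC8 and -0.13, -0.23 and -0.37 for DNAJC17).

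Of the 6 genes of vesicles, endosomes or an unsettled place, DNAJC27 fell at 72 h (-0.60, SE 0.106, adjusted p = 0.000457). Its level was below the median of all probe sets, the analysis of variance did not call it, and it no longer passed the test without any 1 of the untreated arrays, the first 72 h array or the third 72 h array (-0.50 to -0.64). DNAJC13, an endosomal J-domain protein, had 0.27, 0.34 and 0.43 (SE 0.0678) and did not pass the test. Under poly-A scaling it had -0.03, -0.27 and -0.04. DNAJC4 had 0.30 at 12 h and did not pass the test, while its other probe set passed it at that time with 0.72.

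**Figure D3:**
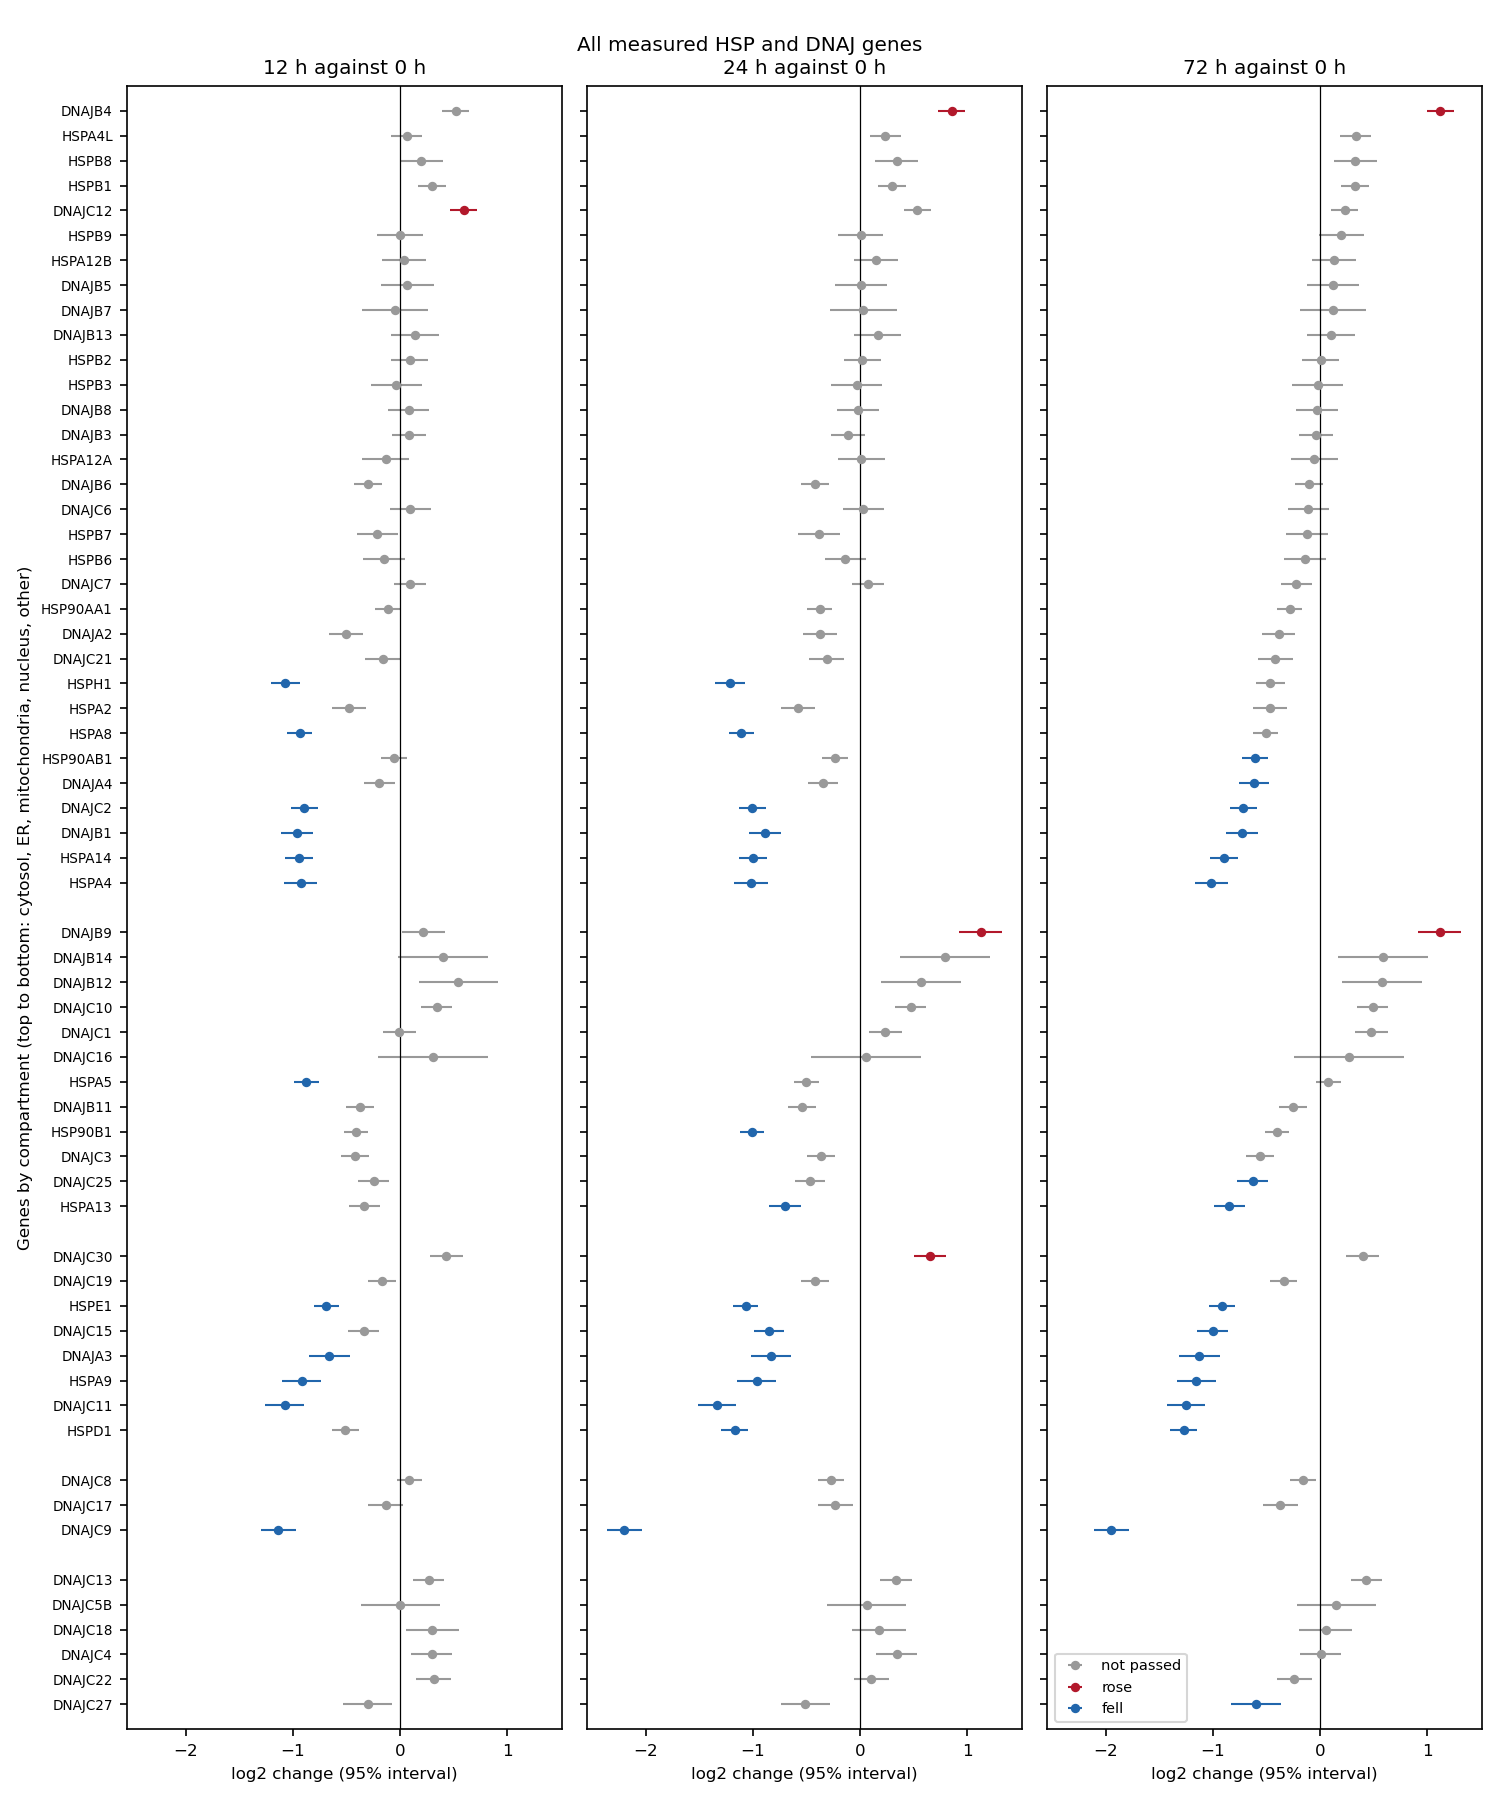
Log2 change against 0 h (horizontal axis) with its 95% interval for each of the 61 genes (vertical axis, grouped by compartment and ordered by the change at 72 h), with genes that rose in red, genes that fell in blue and the others in grey. All but 2 of the mitochondrial genes are blue at 24 and 72 h, and DNAJC9 lies farthest from 0. Of the genes that rose or fell at any time, DNAJC12 at 24 and 72 h, DNAJC30 and HSPA5 at 72 h and DNAJB9 at 12 h turn below 0 with poly-A scaling. Several genes that never passed the test, such as HSPA4L, do so too.

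The treated times were also compared with each other, which asks whether a change continued or turned back. Between 12 and 24 h, 3 chaperone genes fell (4.92%) and 1 rose, against 3.10% and 1.41% of all genes, or 4.51% in either direction. The log2 change was -0.66 for HSPD1 (SE 0.0589, adjusted p = 5.47e-06), -0.60 for HSP90B1 (SE 0.0523, adjusted p = 4.59e-06) and -1.06 for DNAJC9 (SE 0.0742, adjusted p = 6.1e-07). DNAJB9 rose by 0.91 (SE 0.0918, adjusted p = 1.57e-05). The call for HSP90B1 was lost at -0.58 without the third 12 h array or the third 24 h array. None of the 32 cytosolic genes passed the test here with limma or with the analysis of variance, while 2 were higher and 6 lower at an unadjusted p under 0.05.

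Between 24 and 72 h, 3 genes rose (4.92%) and none fell, against 1.96% and 1.81% of all genes, or 3.78% in either direction. At an unadjusted p under 0.05, 13 were higher and 12 lower, and the analysis of variance also gave 3 that rose and 0 that fell. HSPA8 rose by 0.60 (SE 0.0537, adjusted p = 7.91e-06, 1.52-fold), HSPH1 by 0.75 (SE 0.0631, adjusted p = 4.89e-06, 1.68-fold) and HSP90B1 by 0.61 (SE 0.0523, adjusted p = 6.09e-06, 1.52-fold). Each of the 3 had fallen at 24 h, and in each the 72 h arrays stayed below the untreated ones. HSPA8 was at 0.58 without the second 24 h array or the third 72 h array, just under the threshold. HSPA5 had 0.58 (SE 0.0527, adjusted p = 9.14e-06) and missed the fold threshold at 1.49-fold, while its other probe set passed it with 0.72. None of the 8 mitochondrial genes rose or fell in this interval with limma or with the analysis of variance (at an unadjusted p under 0.05, 1 was higher and 4 lower).

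The partners of these families that do not carry their names were taken from a list of 35 co-chaperones, organelle chaperones, proteases and heat shock factors. The list was chosen with earlier results of these data known. All 35 partners were measured. Of these, 10, 11 and 11 fell at 12, 24 and 72 h (28.6%, 31.4% and 31.4%, against 6.30%, 10.0% and 11.0% of all genes) and 0, 1 and 1 rose (2.86% at 24 and 72 h, against 8.01% and 8.73%), with medians of -0.24, -0.46 and -0.27. At 12 h, 5 were higher at an unadjusted p under 0.05, and the analysis of variance gave 0 that rose and 8 that fell, without GRPEL2 and LONP1.

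Beside the 6.30%, 10.0% and 11.0% of all genes that fell at 12, 24 and 72 h, 7 of 17 cytosolic partners fell at each time (41.2%). Most were co-chaperones of HSP90. CHORDC1, which stabilises HSP90 with its clients, changed by -1.09, -1.40 and -1.63, FKBP5, an immunophilin of the steroid receptor complex, by -0.87, -1.28 and -1.50, and PPID, the cyclophilin of that complex, by -0.89, -1.0 and -0.75. STIP1, which hands clients from HSP70 to HSP90, had -0.75, -0.73 and -0.59, and AHSA1, the activator of the HSP90 ATPase, had -0.62, -0.98 and -0.67. FKBP4, a further immunophilin of the complex, had the largest change of the list at 24 h (-1.64), was at -0.91 at 72 h and rose by 0.73 in between. These 6 genes passed the test at all times, except that STIP1 at 72 h did not with cyclic loess (-0.55). PTGES3, or p23, passed it at 24 and 72 h (-0.83 and -0.82) and BAG2 at 12 h (-0.71). CDC37 and UNC45A, also co-chaperones of HSP90, did not pass it at any time as deposited. CDC37 had -0.02, -0.18 and -0.24, and UNC45A had -0.05, 0.05 (-0.555 with poly-A scaling) and -0.23. STUB1, the ubiquitin ligase CHIP that marks HSP70 clients for degradation, had 9.49, 9.44 and 9.58 at 0 h and 10.20, 10.24 and 10.24 at 72 h and rose at that time (0.72, SE 0.0571, adjusted p = 3.06e-07), a call that was lost at 0.25 with poly-A scaling.

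Among the 6 ER partners, 1, 3 and 1 fell (16.7%, 50% and 16.7%), against 6.30%, 10.0% and 11.0% of all genes. With so few partners, a count of 1 is near the share of all genes. SDF2L1, a companion of HSPA5 and the ER J-domain proteins, changed by -0.67, -0.84 and -0.17 and rose by 0.67 between 24 and 72 h. PDIA4, a disulphide isomerase, had -0.37, -1.35 and -0.79 and passed the test at 24 and 72 h. HYOU1, the HSP110-type exchange factor of the ER, fell at 24 h (-0.71). Of 8 mitochondrial partners, 2, 1 and 3 fell (25%, 12.5% and 37.5%), and the share at 24 h was near that of all genes. GRPEL2, an exchange factor of HSPA9, had -0.62, -0.80 and -0.89 and passed the test each time, and LONP1, a matrix protease, fell at 12 and 72 h (-0.67 and -0.63). The 12 h calls of both were lost with the analysis of variance. CLPB, a disaggregase, fell at 72 h (-0.67).

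HSF1, the main activator of heat shock genes, had -0.22, -0.30 and -0.14 and HSF2 had -0.34, -0.54 and -0.51, and neither passed the test. HSBP1, a small protein that binds the trimer of HSF1, was at 11.62, 11.64 and 11.62 at 0 h and at 12.27, 12.20 and 12.32 at 24 h. It rose at 24 h (0.64, SE 0.0594, adjusted p = 1.61e-06), and with poly-A scaling it had 0.04 and did not pass the test. These are transcript levels only, and the binding activity of the factors was not measured.

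**Figure D4:**
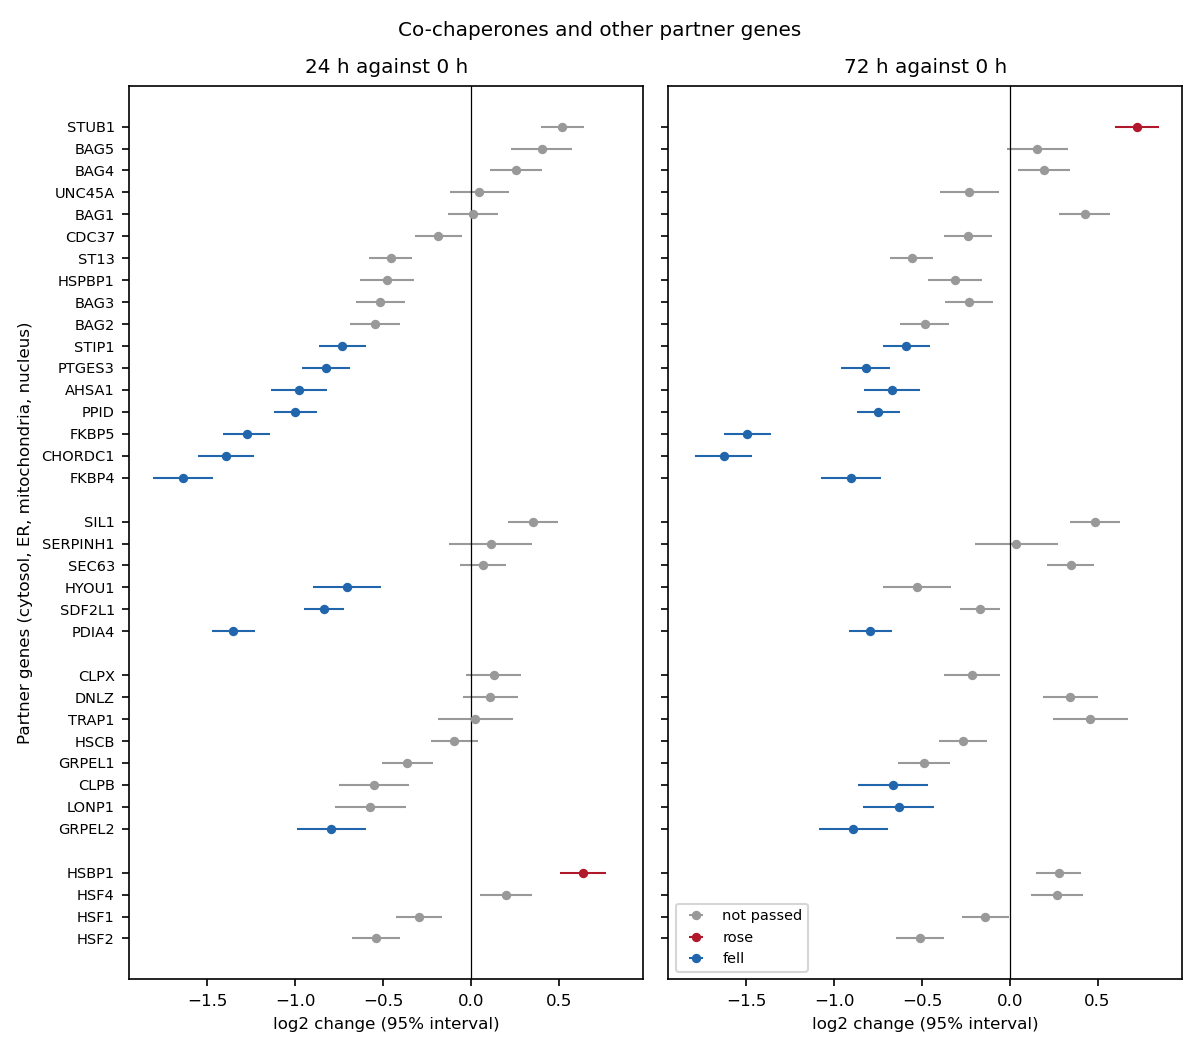
Log2 change against 0 h (horizontal axis) with its 95% interval for the 35 partner genes (vertical axis, grouped by compartment) at 24 h and 72 h, with genes that rose in red, genes that fell in blue and the others in grey. The cytosolic genes that fell lie between -0.73 and -1.64 at 24 h, and STUB1 at 72 h and HSBP1 at 24 h are the only ones in red, neither of which passed the test with poly-A scaling.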

How the data were processed

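The deposited log2 values were made by the authors from the scanned Canine Genome arrays in Partek Genomics Suite with its gcRMA workflow, that is RMA background correction, quantile normalisation and median polish of each probe set. Quantile normalisation gives all arrays the same distribution, so a shift of all transcripts together cannot be seen. The table held 43035 probe sets, of which 111 were Affymetrix controls and 42924 were tested. Array data have no read depth, and the number of arrays limits the precision (median residual SD 0.112 on the log2 scale).

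Symbols came from the annotation of the platform. Each gene was represented by the probe set with the highest mean, 39 of the 61 chaperone genes had several, and 2 probe sets that carried HSP90AA1 beside another symbol were left out. The same 61 genes were found when symbols were updated. Compartments were assigned by hand from general knowledge of the proteins.

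Times were compared with limma 3.58.1 in R 4.3.3 (lmFit and eBayes, 1 coefficient per time, all 12 arrays). P-values were adjusted by Benjamini-Hochberg, and a gene was called at an adjusted p under 0.001 and over 1.5-fold, the limits of the study's methods. The scripts were tested on simulated data. Figures were drawn with matplotlib 3.10.9. Alternatives were other scalings (shift to 1 median, cyclic loess, poly-A controls), filters on dim probe sets, other choices of probe set, other thresholds, arrays of only the compared times, a replicate block, each array left out in turn and the analysis of variance of the methods.

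Chaperone genes, partner list, markers and tests were chosen with earlier results of these data known. Values per array are given for the largest called changes (up to 6 cytosolic, 4 ER and 4 mitochondrial), for other genes that rose, and for the main HSP70, HSP90 and HSP60 genes. The other genes given in full are named as such.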

Additional observations from a re-analysis of the deposited data

Results flagged for a closer look

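Changes between successive treated times passed the test for 7 comparisons of 6 genes, each a difference between 2 treated times, in which the drug and the hours in culture cannot be told apart. From 12 to 24 h, DNAJB9 had a log2 change of 0.91 (SE 0.0918, limma adjusted p = 1.57e-05), DNAJC9 of -1.06 (SE 0.0742, adjusted p = 6.1e-07), HSP90B1 of -0.60 (SE 0.0523, adjusted p = 4.59e-06) and HSPD1 of -0.66 (SE 0.0589, adjusted p = 5.47e-06). From 24 to 72 h, HSP90B1 had a change of 0.61 (SE 0.0523, adjusted p = 6.09e-06), HSPA8 of 0.60 (SE 0.0537, adjusted p = 7.91e-06) and HSPH1 of 0.75 (SE 0.0631, adjusted p = 4.89e-06). HSP90B1 is the only gene in both lists, with opposite signs. In each of the 7 comparisons the 3 arrays of a time did not overlap with the 3 of the other. These comparisons were picked because they passed the test, so this adds no further support. It was not counted over all genes, and HSP90AA1 from 12 to 24 h had no overlap either without passing the test. Of all genes, 4.51% passed the test in either direction between 12 and 24 h and 3.78% between 24 and 72 h.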

How the results depend on the processing

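Of 56 calls, 0 changed direction under any alternative, and 6 (given beside their genes) were lost when some single array was left out. With 1 array left out, the counts of genes called were 12 to 13, 18 to 19, 16 to 18, 3 to 4 and 2 to 4 for 12, 24 and 72 h against 0 h, 24 against 12 h and 72 against 24 h (13, 18, 18, 4 and 3 with all arrays). At 12, 24 and 72 h, the medians then ran from -0.0863 to -0.0228, -0.106 to -0.0586 and -0.132 to -0.0764 in the cytosol, from -0.178 to -0.0866, -0.218 to -0.0725 and 0.0607 to 0.267 in the ER, and from -0.603 to -0.562, -0.937 to -0.899 and -1.09 to -1.04 in mitochondria. The ER median at 72 h was lowest without the first 72 h array and highest without the second untreated one. Scaled to the poly-A controls, 21, 38 and 34 chaperone genes were called against 0 h, of which 0, 0 and 2 rose and 21, 38 and 32 fell. Under that scaling 278, 314 and 541 of all 15115 genes rose and 2168, 7076 and 4638 fell, so falls were more frequent among all genes too. From 12 to 24 h, 8 chaperone genes were called, while 57 of all genes rose and 1219 fell. Medians were then -0.346, -0.677 and -0.577 in the cytosol, -0.42, -0.755 and -0.297 in the ER, and -0.879, -1.51 and -1.54 in mitochondria. Shifting arrays to 1 median gave -0.135 for the cytosol at 72 h and -0.62 for mitochondria at 12 h. Without the dimmest 40% of probe sets, cytosolic medians were -0.176, -0.359 and -0.402, and ER medians -0.248 and -0.362 at 12 and 24 h. With the probe set of the largest change, the ER median was -0.239 at 12 h and the mitochondrial ones -0.674, -1.17 and -1.3. An adjusted p under 0.05 without a fold limit called 33, 44, 42, 18 and 19 genes, and a limit of 2-fold 3, 10, 9, 1 and 0 (19 of that last comparison have an adjusted p under 0.05). The share of all genes at these other limits was not counted. Averaging all probe sets of a gene lost 9 calls, scaling to the poly-A controls 4 and cyclic loess 3. The replicate block left the counts at 13, 18, 18, 4 and 3. What the array numbers mark is not given by the labels. Deviations from the mean of a time correlated at -0.329 to 0.411 for arrays of equal number, against -0.455 to 0.461 for unequal numbers. Each mean rests on only 3 arrays, so these ranges cannot decide whether equal numbers mark a pairing.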

Other observations

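One probe set carried the bare symbol HSP70, which the family names do not cover, and it was looked at after its values were seen. It had log2 levels of 8.32, 8.20 and 8.17 at 0 h, 8.32, 8.32 and 8.36 at 12 h, 8.46, 8.32 and 8.35 at 24 h, and 9.03, 9.19 and 9.16 at 72 h. The 72 h arrays stood above all others. With poly-A scaling the changes were -0.19, -0.46 and 0.42, and the call at 72 h was lost. The changes were 0.11, 0.14 and 0.90 (SE 0.0671), and the last passed the test (limma adjusted p = 1.88e-07), as did the change of 0.75 between 24 and 72 h (adjusted p = 7.79e-06). Which HSP70 gene it detects is not given by its symbol, and its probes can match more than 1 transcript.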
